A study of Mus musculus with 2 samples.

Results

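Across the growth plates at both ends of the mouse femur, 989 open chromatin regions lay near the start of a gene not annotated as protein-coding. They lay away from the start of any gene that is. They were selected by measured values, namely the presence of an ATAC-seq peak in the lists of both femur ends, together with the annotation: overlapping peaks of the 2 lists were merged, and a merged region was kept if it held a peak of each end, lay within 1 kb of a transcription start site (TSS) of a noncoding gene in GENCODE vM21 on mm10, and lay more than 1 kb from every TSS of a protein-coding gene. Noncoding here means any gene type other than protein-coding, so it includes immunoglobulin and T cell receptor segments, which were at 13 members. The 989 members were 3.05% of the 32388 merged regions and 4.18% of the 23635 shared regions, meaning those with peaks at both ends. They covered 833198 bp on the 19 autosomes. The lists hold no peak on chromosome X or Y, so genes there were not assessed.

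The study profiled open chromatin by ATAC-seq, in which the Tn5 transposase inserts sequencing adapters into accessible DNA. The 2 groups were the proximal and the distal femoral growth plates of E15.5 mouse embryos (strain given as FVBNJ), and no gene modification, transgene or drug treatment is named for either. The cartilaginous ends of left and right femurs were cleared of soft tissue, cut from the bony shaft and pooled within a litter averaging 8 animals. They were then dissociated to cells and transposed at 50000 cells per reaction. A peak therefore describes a litter's pooled tissue, with all chondrocyte zones and the overlying perichondrium together. Each list keeps the peaks that 2 biological replicates reproduced, judged by the irreproducible discovery rate (IDR) with a limit of 0.05. The lists give positions alone, with no height, score or replicate value, so the only quantity measured per region is its width, the read depth behind each peak is unknown, and no test between the ends was possible. Intervals on shares are 95% Wilson intervals and cover counting error only, since regions are not replicates of a condition.

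Noncoding genes come in kinds with different promoters. Long noncoding RNAs (lncRNAs), including lincRNAs between genes and antisense transcripts, are mostly made by RNA polymerase II from promoters built like those of mRNAs. Small RNAs have several origins: small nucleolar RNAs (snoRNAs), which guide the modification of ribosomal RNA, and microRNAs (miRNAs), which repress target mRNAs through their seed, are usually cut out of longer host transcripts, whereas 7SK and Y RNAs are made by RNA polymerase III from a compact promoter upstream of the gene. Pseudogenes are decayed copies of genes, many of them inserted without a promoter of their own.

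The proximal list held 28257 peaks and the distal list 27958. Of 9 chondrocyte marker genes, 6 had peaks of both ends at a start (Sox9, Col2a1, Acan, Col9a1, Hapln1 and Sox6). The start of Sox5 was covered at the proximal end alone, that of Comp at the distal end alone, and that of Matn1 at neither. None of 5 osteoblast markers and none of 4 muscle markers had a peak at a start. Among markers of other cell types, 1 of 4 for endothelium (Kdr, with Tek at the distal end alone) and 1 of 4 for epithelium (Epcam) had peaks of both ends. The part of such cells in the regions below was not tested.

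The sequences that follow stand for the kinds of start found in the set, all read from the GRCm38 assembly (mm10). The first are the 5 snoRNA host genes among the members with an entry in the RefSeq promoter table. Each window runs from 50 bases before to 30 bases from the RefSeq start, which is base 51. Host transcripts of this family are known for starting within a run of pyrimidines, so capitals mark the longest run of C and T that begins between 10 bases before and 20 bases after the start.
Snhg5, chr9:88522868-88522947, minus strand: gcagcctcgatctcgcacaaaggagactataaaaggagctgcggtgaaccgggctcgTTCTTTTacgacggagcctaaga
Snhg8, chr3:123508307-123508386, minus strand: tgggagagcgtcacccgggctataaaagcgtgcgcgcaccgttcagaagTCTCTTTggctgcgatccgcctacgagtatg
Snhg12, chr4:132308628-132308707, plus strand: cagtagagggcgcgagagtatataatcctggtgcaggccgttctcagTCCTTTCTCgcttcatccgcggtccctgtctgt
Snhg15, chr11:6528731-6528810, minus strand: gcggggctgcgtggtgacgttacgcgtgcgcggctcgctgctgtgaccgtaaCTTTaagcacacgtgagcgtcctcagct
Snhg17, chr2:158361493-158361572, minus strand: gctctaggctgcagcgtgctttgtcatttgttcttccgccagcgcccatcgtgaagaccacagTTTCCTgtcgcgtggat
The marked run is 9 bases in Snhg12, 7 in Snhg5 and Snhg8, 6 in Snhg17 and 4 in Snhg15. It spans the annotated start in Snhg8 and Snhg12. Upstream, the letters TATAAA begin 23 bases before the start of Snhg5 and 30 bases before that of Snhg8.

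Structural and nuclear RNAs are shown with a different mark. The letters TATAAA of Snhg5 and Snhg8 above, and a run of A and T upstream in Snhg12, also fall within its limits. The mark therefore does not set the groups apart. The windows below cover 100 bases before and 20 bases from the GENCODE start, which is base 101, and capitals mark any run of 5 or more A and T that begins between 40 and 15 bases before it.
Rn7sk, chr9:78175614-78175733, minus strand: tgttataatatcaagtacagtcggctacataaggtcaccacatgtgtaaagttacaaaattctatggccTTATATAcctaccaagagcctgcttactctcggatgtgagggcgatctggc
Rny1, chr6:47788161-47788280, minus strand: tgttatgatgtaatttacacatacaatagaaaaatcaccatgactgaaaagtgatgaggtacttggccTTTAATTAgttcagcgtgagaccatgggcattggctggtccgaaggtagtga
Neat1, chr19:5845459-5845578, minus strand: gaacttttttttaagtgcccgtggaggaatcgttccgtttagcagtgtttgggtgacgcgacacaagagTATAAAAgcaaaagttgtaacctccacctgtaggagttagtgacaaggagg
Rnu11, chr4:132270194-132270313, minus strand: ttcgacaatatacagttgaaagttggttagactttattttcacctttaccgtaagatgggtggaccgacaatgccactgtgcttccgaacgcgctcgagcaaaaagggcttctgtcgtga
Rn7sk encodes the 7SK RNA that restrains transcription elongation, Rny1 a Y RNA bound by Ro60, and Neat1 the RNA scaffold of nuclear paraspeckles. Their runs begin 31, 32 and 31 bases before the start, respectively. Rnu11, an RNA of the minor spliceosome whose class of promoter uses a proximal sequence element in place of a TATA box, has no such run.

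The imprinted members are shown by 150 bases centred on a GENCODE start (base 76), because imprinted starts are known for methylation of CpG sites on 1 parental copy. Capitals mark CpG dinucleotides.
Airn, chr17:12741323-12741472, plus strand: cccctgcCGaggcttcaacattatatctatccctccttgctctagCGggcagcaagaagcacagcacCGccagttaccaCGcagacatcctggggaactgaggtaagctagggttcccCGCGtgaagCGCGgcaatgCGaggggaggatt
Kcnq1ot1, chr7:143296475-143296624, minus strand: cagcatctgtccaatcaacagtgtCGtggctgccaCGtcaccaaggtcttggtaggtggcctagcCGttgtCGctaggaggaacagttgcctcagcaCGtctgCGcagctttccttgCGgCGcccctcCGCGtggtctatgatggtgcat
Nespas, chr2:174295362-174295511, minus strand: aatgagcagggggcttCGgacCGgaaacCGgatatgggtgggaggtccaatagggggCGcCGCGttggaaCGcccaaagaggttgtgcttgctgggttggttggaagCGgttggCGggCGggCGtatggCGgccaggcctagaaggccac
Peg13, chr15:72810250-72810399, minus strand: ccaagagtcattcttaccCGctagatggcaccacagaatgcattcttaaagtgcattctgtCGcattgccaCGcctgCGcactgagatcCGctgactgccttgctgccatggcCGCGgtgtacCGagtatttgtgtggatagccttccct
The windows hold 9 CpGs in Airn, 10 in Kcnq1ot1, 12 in Nespas and 8 in Peg13.

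The letters TGACTCA, the consensus bound by AP-1 factors, were found in the centre of 16.3% of members. The 4 matches below are at a lincRNA upstream of Bmp6 (a bone morphogenetic protein), a lincRNA upstream of Fgfr1 (a receptor of fibroblast growth factors), the widest member of single-copy sequence, and Lncpint, a p53-induced lncRNA. Each is given on the plus strand with 30 bases on either side, and capitals mark the match.
Gm47990, chr13:38320450-38320516, plus strand: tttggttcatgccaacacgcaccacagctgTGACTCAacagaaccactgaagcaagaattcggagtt
Gm30978, chr8:25429040-25429106, plus strand: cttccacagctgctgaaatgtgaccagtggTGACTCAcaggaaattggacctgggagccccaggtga
2410080I02Rik, chr19:23135105-23135171, plus strand: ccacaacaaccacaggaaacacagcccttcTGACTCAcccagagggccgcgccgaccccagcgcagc
Lncpint, chr6:31088602-31088668, plus strand: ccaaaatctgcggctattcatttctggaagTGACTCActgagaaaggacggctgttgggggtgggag
The matches lie 31 and 74 bp after the region centre in Gm47990 and Gm30978, and 22 and 46 bp before it in 2410080I02Rik and Lncpint, counted along the chromosome.

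MicroRNA genes started within 1 kb of 44 members. Of these 45 genes, 27 have a mature sequence in the RefSeq miRNA table, 43 sequences in all with 43 different seeds, so no seed was shared between them. The mature forms below belong to the better known genes of the set, with the seed (bases 2 to 8) in capitals.
miR-199a-5p: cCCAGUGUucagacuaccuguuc
miR-199a-3p: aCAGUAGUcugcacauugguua
let-7i-5p: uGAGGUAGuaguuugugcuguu
miR-210-3p: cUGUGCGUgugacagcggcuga
miR-193a-3p: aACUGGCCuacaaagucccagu
miR-148a-3p: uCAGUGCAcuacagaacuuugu
miR-146a-5p: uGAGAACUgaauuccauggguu
miR-128-3p: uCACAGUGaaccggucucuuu
miR-7b-5p: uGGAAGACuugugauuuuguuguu
miR-129-5p: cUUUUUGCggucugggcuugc
The first pair comes from Mir199a-2, which sits with Mir214 in the lncRNA Dnm3os, a transcript known for its role in skeletal growth.

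Few noncoding genes with a start away from coding starts had a member, and the kinds differed. Of 27646 such genes, with a start outside 1 kb of coding starts, 1110 had a member, or 4.02%. A shared region lay within 1 kb of a start for 55% of protein-coding genes (11437 of 20807). The 2 shares are not alike, because members exclude regions near a coding start. That limit left out 1799 of the 2788 shared regions within 1 kb of a noncoding start. These 4.02% are the background for the counts of noncoding genes that were members, and not for counts of regions at coding starts or of neighbouring coding genes. The share was 7.94% for lncRNA genes (612 of 7704, interval 7.36 to 8.57%), 3.35% for TEC genes, the annotation's class of candidate loci awaiting experimental evidence (97 of 2899), 3.11% for small RNA genes (159 of 5117), 2.63% for immunoglobulin and T cell receptor segments (13 of 494) and 2.00% for pseudogenes (229 of 11432). The intervals of lncRNA genes and of pseudogenes (1.76 to 2.28%) overlapped neither each other nor those of TEC and small RNA genes.

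Within each kind, the share varied with gene type. Among lncRNAs it was 16.5% for processed transcripts (85 of 516), 8.36% for lincRNAs (407 of 4868), 5.53% for antisense genes (109 of 1970) and 2.95% for sense intronic genes (9 of 305). Among pseudogenes it was 11.1% for transcribed unprocessed copies (24 of 217) and 6.87% for transcribed processed copies (18 of 262), but 2.09% for unprocessed (37 of 1771) and 1.57% for processed copies without annotated transcription (138 of 8814). Pseudogenes annotated as transcribed thus had higher shares than the others of the same origin, with intervals that did not overlap. Among small RNAs, misc RNAs reached 6.16% (30 of 487), above miRNAs at 2.62% (45 of 1718), snRNAs at 2.82% (35 of 1240) and snoRNAs at 3.09% (40 of 1293), while the last 3 had overlapping intervals. The misc RNA type holds the 7SK, Y and signal recognition particle RNAs. It also holds entries at lncRNA starts, such as those of Neat1, Miat and Nespas.

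**Figure D1:**
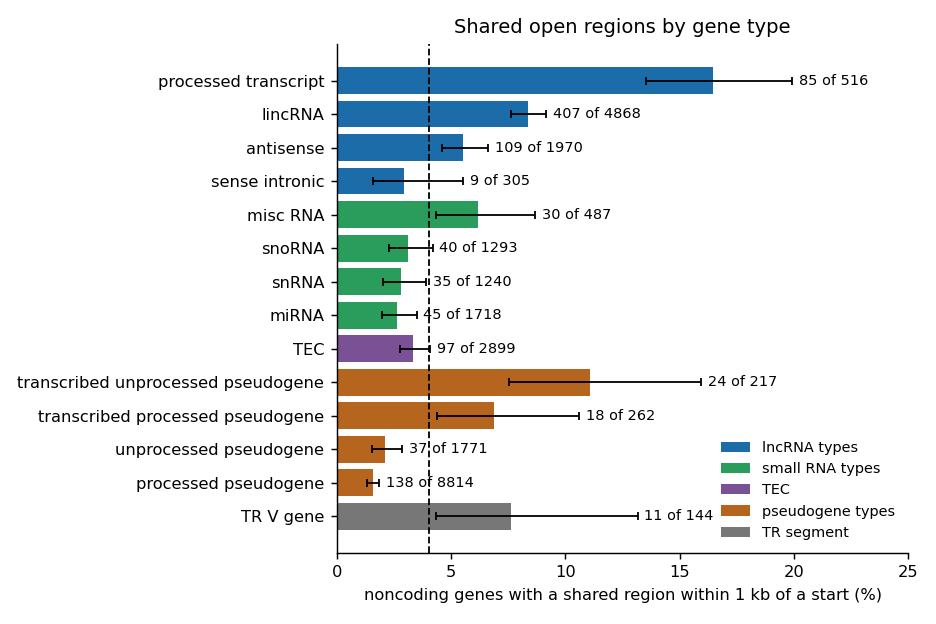
Share of noncoding genes with a member within 1 kb of a start (horizontal bars, percent), for 14 of the 41 GENCODE types. Lines on the bars are 95% Wilson intervals, and the counts are at the right. The dashed line is the 4.02% of all 27646 genes. Of the types plotted, processed transcripts lie farthest to the right of it at 16.5%, and processed pseudogenes farthest to the left at 1.57%. Types not plotted are mostly small, such as transcribed unitary pseudogenes (4 of 15).

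Read by region, lncRNA starts dominated. LncRNA genes were at 597 of the 989 members (60.4%, 57.3 to 63.4%), pseudogenes at 211 (21.3%), small RNA genes at 139 (14.1%), TEC genes at 97 (9.81%) and immunoglobulin or T cell receptor segments at 13. A single kind accounted for most regions: 541 had lncRNA starts alone, 192 pseudogene starts alone, 101 small RNA starts alone and 77 TEC starts alone. Another 66 held more than 1 kind, of which 29 combined lncRNA and small RNA starts. These 29 include snoRNA hosts such as Snhg5, but also Neat1 with misc RNAs and Rn7sk with a lincRNA. More than 1 noncoding gene started at 123 members. Conversely, 29 genes had more than 1 member, and none had more than 3. Most of the genes carry no functional name, since 927 of the 1110 are known by a clone or Gm number only. In RefSeq, an annotation the selection did not use, 467 members (47.2%) lay within 1 kb of a noncoding transcript start, 55.4% of those at lncRNAs alone and 24.5% of those at pseudogenes alone. The same held for 15.4% of all merged regions, 31.9% of shared regions at coding starts and 3.49% of those more than 3 kb from every start.

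Regions at noncoding-only starts were shared between the ends about as often as regions at large. Including regions of a single end, 1356 regions met the 2 distance limits, of which 989 (72.9%) were shared, 191 had proximal peaks alone and 176 distal peaks alone. For comparison, 73% of all 32388 merged regions and 89.4% of the 12418 at coding starts were shared. The shares by kind ran from 61.9% of 21 regions at immunoglobulin or T cell receptor segments (13 regions, 40.9 to 79.3%) through 73.4% of 813 regions at lncRNA genes (70.3 to 76.4%), 73.5% at pseudogenes and 74.1% at TEC genes to 76.4% at small RNA genes (69.7 to 82.0%), and their intervals overlapped. A noncoding start was often accompanied by a coding start. Of 2788 shared regions within 1 kb of a noncoding start, 1799 also lay within 1 kb of a coding start, which left 35.5% as members.

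The limits of the selection cut through a continuous range. Just inside the 1 kb limit were the members at Gm16365, 1000 bp from its start, and at Gm47514, 998 bp from its start. Just outside were regions 1004 bp from the start of Gm47053 and 1007 bp from that of Tmem132cos. On the coding side, the members at Gm44089 and Gm10419 lay 1007 bp from a start of Add2 and 1014 bp from a start of Gm42517. Regions at G630016G05Rik and Crnde were left out, being 983 bp from starts of Meis2 and Irx5.

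Members sat over the noncoding start less tightly than regions at coding starts did. A noncoding start lay inside 634 members (64.1%, 61.1 to 67.0%). This share was 67.7% for lncRNA starts alone, 55.7% for pseudogenes, 54.5% for small RNAs and 44.2% for TEC genes, and 25 of 29 for members with lncRNA and small RNA starts. The centre of the region was within 250 bp of the leading start, meaning the start nearest the region, for 56.4% of members led by lncRNAs (52.3 to 60.4%), 51.3% of those led by small RNAs, 44.7% of those led by pseudogenes and 41.9% of those led by TEC genes. At coding starts it was 84.4% (83.7 to 85.0%), and no interval of the 4 noncoding kinds reached it. The median offset of the centre was within 50 bp of the start for each kind, at -4.5 bp for lncRNAs, -24 bp for pseudogenes, 43 bp for small RNAs and 28 bp for TEC genes, where negative values lie upstream. Of the 4 shares within 250 bp, only those of lncRNAs and pseudogenes (38.0 to 51.7%) had intervals that did not overlap. The distance limit was the same on both sides of the start, so the selection itself favoured small median offsets.

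**Figure D2:**
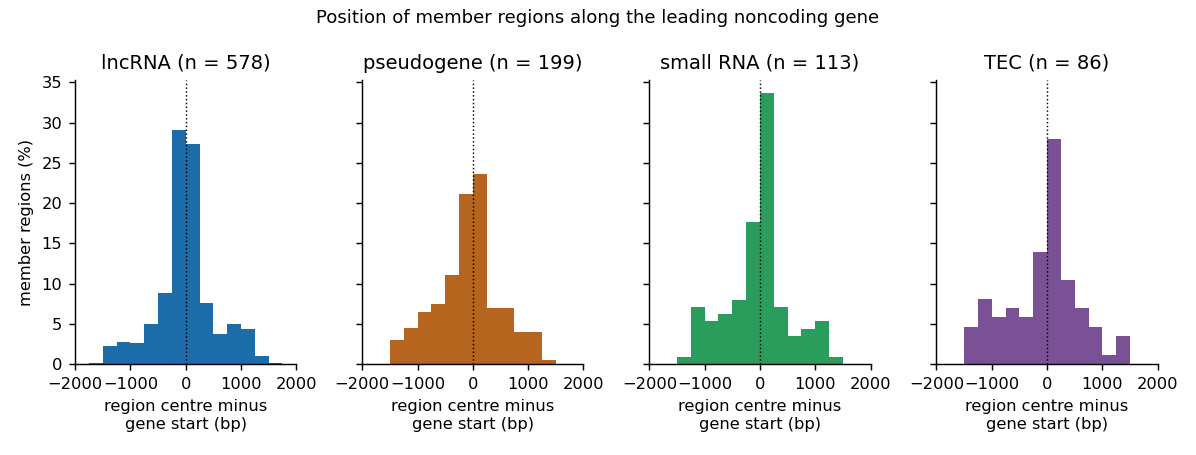
Distance from the leading noncoding start to the region centre (horizontal axis, bp, positive along the direction of transcription) against the percent of members in bins of 250 bp, for members led by lncRNA, pseudogene, small RNA and TEC genes. Every panel peaks at the start (dotted line), over tails that reach past 1000 bp on both sides.

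In base composition the members were near the level of all merged regions and lay between regions at coding starts and those far from starts. A region was called rich in CpG when the 200 bp around its centre had GC content above 50% and a ratio of observed to expected CpG above 0.6, the usual description of a CpG island. This held for 329 members (33.3%, 30.4 to 36.3%), compared with 78.6% of the 11106 shared regions at coding starts, 5.70% of the 10311 shared regions more than 3 kb from every start, and 33.2% of all merged regions. The median CpG ratio was 0.473 in members (quartiles 0.248 and 0.744), 0.830 at coding starts and 0.246 far from starts. Median GC content followed the same order, at 54.5% in members, 66.5% at coding starts and 49% far from starts. The members were a mixture: 42.4% of those containing a start were rich in CpG, but 16.9% of those beside one. By kind, the share was 69.0% for members with lncRNA and small RNA starts (20 of 29), 43.8% for pseudogenes, 29% for lncRNAs alone, 27.7% for small RNAs alone and 23.4% for TEC genes.

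Motif letters divided the members along the same line. Motifs were searched on both strands of the central 200 bp. TGACTCA (AP-1) was present in 161 members (16.3%, 14.1 to 18.7%), 3.46% of shared regions at coding starts, 31.2% of those far from starts and 19.9% of all merged regions. Among members not rich in CpG it was present in 23.3% (154 of 660), but in 2.13% of members rich in CpG (7 of 329). GGGCGG (the GC box, bound by Sp1) was present in 25.4% of members, 54.7% at coding starts, 8.49% far from starts and 25.8% of all regions, and it was found in 52.6% of members rich in CpG and 11.8% of the others. None of the 29 members with lncRNA and small RNA starts held TGACTCA, a count of 0 whose interval reaches 11.7%. Of these 29, 20 were rich in CpG, where 2.13% of members held these letters. The letters used to define CpG richness and the GC box overlap in composition, so these measures are not independent.

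Other motifs placed the members between the 2 comparison sets as well, or did not separate them. CCGGAAG (ETS factors) was present in 3.84% of members, 11.2% at coding starts, 1.5% far from starts and 5.00% of all regions, and GCATGCGC (NRF1) in 0.708%, 2.57%, 0.456% and 1.23%, in that order. TATAAA was present in 5.16% of members, 2.18% at coding starts, 9.82% far from starts and 6.92% of all regions. The CTCF consensus, the motif of the factor that bounds chromatin loops, was present in 2.93%, 0.468%, 3.87% and 2.78%, and TGTGGTT (RUNX) in 3.94%, 1.87%, 6.66% and 4.63%. For CCAAT (NF-Y) the shares lay close together, at 20.9%, 23.0%, 22.3% and 22.5%. For ACAATGG (SOX) they were 1.52%, 1.02%, 1.45% and 1.20%, and for TGACGTCA (the cyclic AMP response element, CRE) 0.910%, 1.93%, 0.563% and 1.09%. A match is a run of letters and not a measured binding site.

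**Figure D3:**
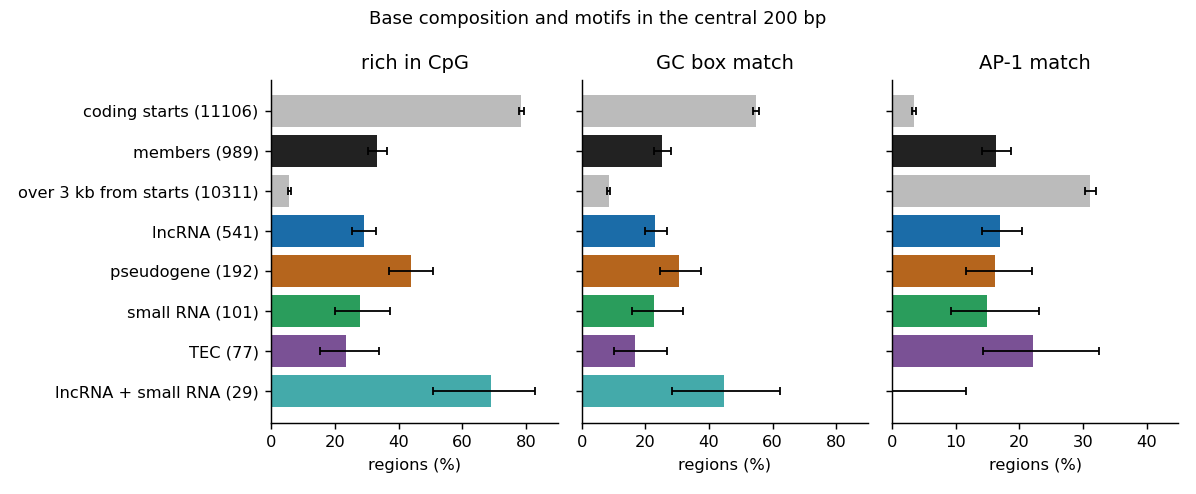
Percent of regions rich in CpG, holding the GC box letters, and holding the AP-1 letters in the central 200 bp (3 panels, bars with 95% Wilson intervals, numbers of regions in parentheses). Grey bars are shared regions at coding starts and over 3 kb from starts, the black bar is all members, and coloured bars are members by kind of start. Members lie between the grey bars in each panel, at 33.3%, 25.4% and 16.3%. All merged regions, which are not drawn, were at 33.2%, 25.8% and 19.9%.

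Member widths followed the same order as their composition. The median width was 790 bp (quartiles 594 and 1012, range 255 to 5746), compared with 998 bp for shared regions at coding starts, 674 bp far from starts and 716 bp over all merged regions. In 985 members there was exactly 1 peak of each end. In these, the proximal peak had a median of 738 bp and the distal peak 715 bp, and the proximal minus distal difference had a median of 10 bp (quartiles -41 and 65). The proximal peak was wider in 541 and the distal in 438, so 54.9% were wider proximally, against 54.2% at coding starts and 57.1% of all shared regions. The overlap of the peak pair took up a median of 89.7% of their union, and their centres were a median of 27.5 bp apart.

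**Figure D4:**
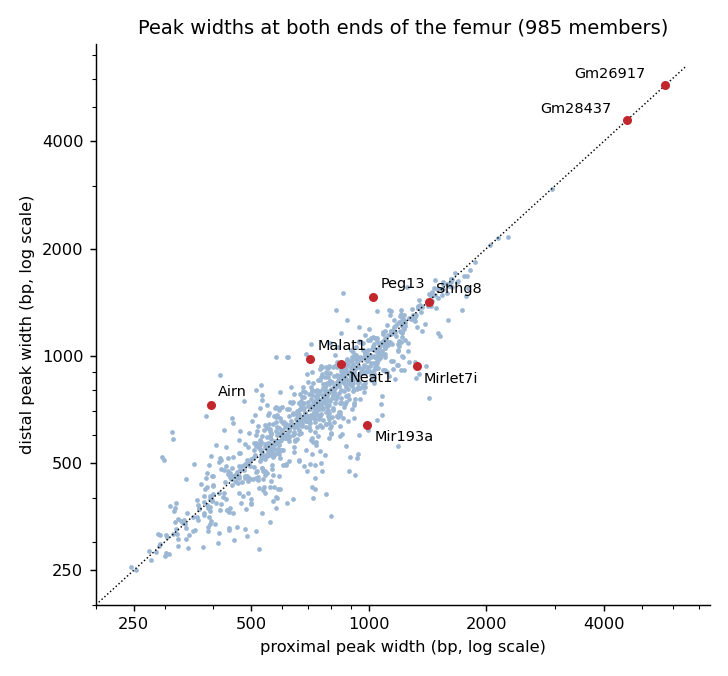
Width of the proximal peak (horizontal axis, bp, log scale) against that of the distal peak (vertical axis, bp, log scale) for the 985 members with 1 peak of each end. The dotted line marks equal widths and red points are members described by name. Most points lie near the line, and Airn and Peg13 lie above it (wider distally) with Mirlet7i and Mir193a below it.

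The widest members included ribosomal and mitochondria-like sequence, and 4 of the 10 widest had over 50% of their 32-base words repeated elsewhere in the assembly. The widest, at 5746 bp (proximal peak 5735 bp, distal 5746 bp), was chr17:39843046-39848791, where lincRNA Gm26917 and 3 other genes, rRNA among them, start. The next was chr1:24611571-24616149 (proximal peak 4579 bp, distal 4577 bp), with starts of 7 unprocessed pseudogenes including Gm28437, and 98.8% of its 32-base words occur in the mitochondrial genome. The region at Gm13341 (2944 bp) shared 51.5% of its words with the mitochondrial genome. Nuclear copies of mitochondrial DNA are known to collect reads from mitochondria in ATAC-seq, and their part here was not tested. In all, 15 merged regions shared a word with the mitochondrial genome, 5 of them members.

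Other wide members were single-copy sequence at lincRNAs. 2410080I02Rik (2274 bp proximally, 2157 bp distally) lay 4930 bp upstream of Klf9, a zinc finger factor that responds to steroid and thyroid hormones, and held the AP-1 letters shown above. AC141471.3 (2145 and 2134 bp) lay 18429 bp from Cxxc5, Gm7461 (2048 and 2049 bp) 51368 bp from Zfp958, and G730013B05Rik (1871 and 1829 bp) 60663 bp from Ccdc54. None of these 4 had a repeated word. Gm10060 and 6820431F20Rik, both pseudogenes, had 78.6% and 81.2% repeated words in 1883 and 1828 bp, and the TEC gene Gm37194 had 14.2% in 1795 bp.

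Copies elsewhere in the genome were a feature of some kinds. For 111 members (11.2%), over 50% of the 32-base words occurred again in the assembly, whereas 605 members (61.2%) had no repeated word. The share with over 50% repeated words was 2.59% for lncRNAs alone (14 of 541) and 1.30% for TEC genes, but 19.8% for small RNAs (20 of 101) and 29.7% for pseudogenes (57 of 192). Among T cell receptor and immunoglobulin segments it was 9 of 12, with medians of 100% repeated words, and 7 of the members nearest to Olfr1507 were T cell receptor alpha V segments. Where words are repeated, reads cannot be assigned to 1 copy, and the part of this in the peaks was not tested.

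Among the small RNA members with copies, snRNA genes stood in families. Gm25679 and Gm26444 were made up wholly (100%) of repeated words that occurred up to 26 times. Gm23804 was at 99.9%, Gm24305 at 96.2%, Gm22317 at 95.5% and Gm22634 at 94.7%, and each had its most frequent word at 24 to 26 occurrences. The U3 snoRNA copies Rnu3b1, Rnu3b2 and Rnu3b4, whose RNA takes part in processing the precursor of ribosomal RNA, had 54.1%, 67.3% and 55.2% repeated words.

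Transfer RNA genes, for which the selecting annotation has no nuclear class, also lay in some members. RefSeq places 386 tRNA genes on these chromosomes, and 25 of them lay in 16 members (1.62%, 0.998 to 2.61%). The share was 0.252% of shared regions at coding starts, 0.582% far from starts and 0.401% of all merged regions. The members at Gm27552 and Gm27844, annotated as miRNA genes, each held 3 tRNA genes and were 1516 and 1729 bp wide with 100% and 98.1% repeated words. Gm11333, a processed pseudogene, and n-TStga1, also annotated as a miRNA, each held 3 as well, with 5.56% and 12.7% repeated words. These members, and the snRNA and U3 copies above, were picked out after their values were seen.

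Of 23 small nucleolar RNA host genes on the list used here, 16 are noncoding genes in the annotation. Of these, 14 had a shared region at a start, and 7 were members. The other 7, including Gas5, Snhg1 and Zfas1, were at starts within 1 kb of a coding start. Snhg14 and Snhg20 had none, 6 were not in the annotation under these names and Snhg11 is annotated as coding. No share of all noncoding genes was taken with regions at coding starts counted, so the 14 have no matching background. All 7 member regions contained a start, none held TGACTCA, and 6 of the 7 met the CpG definition, Snhg15 missing it with a ratio of 0.556. The region of Snhg8 was 1428 bp wide (proximal 1426 bp, distal 1411 bp), that of Snhg5 1116 bp (1097 and 1049 bp), that of Snhg17 1086 bp (1009 and 935 bp) and that of Snhg15 1021 bp (979 and 816 bp). Snhg6 was at 990 bp in the proximal list and 967 bp in the distal list, and Snhg12 at 556 and 564 bp. Epb41l4aos, a snoRNA host on the strand opposite Epb41l4a, was wider distally (794 and 1086 bp). The 5 printed starts above all lie in these regions, whose GC content was 60.0 to 69.5%.

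Nuclear and widely expressed lncRNAs were members in 11 of 19 cases that could be assessed. The 11 include Gm26917, the widest member described above, where rRNA also starts. The list has 24 names, of which 4 were not in the annotation and 1 was not on the chromosomes of the peak lists. Malat1, an abundant RNA of nuclear speckles, had a region of 707 bp proximally and 978 bp distally that lay 483 bp from its nearest annotated start, and both Malat1 (68.5% GC, CpG ratio 1.01) and Neat1 (849 and 947 bp, 54.5% GC, ratio 0.748) were rich in CpG. The Neat1 region also took in the starts of Frmd8os and 3 misc RNAs. Dleu2, host of the miR-15 and miR-16 genes, had regions of 1545 and 1258 bp. Lncpint had 2 as well, at 1123 bp with the AP-1 letters shown above and a CpG ratio of 0.404, and at 628 bp with a ratio of 0.972.

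The other lncRNA members of this list varied in width and composition. Trp53cor1 (lincRNA-p21) was narrow, at 392 bp proximally and 403 bp distally, 11717 bp from Cdkn1a, the p21 inhibitor of the cell cycle. Lockd was wider proximally (1311 and 958 bp) and 7503 bp from Cdkn1b, the p27 inhibitor. Dubr (1001 and 908 bp) and 1810026B05Rik (1012 and 992 bp) were rich in CpG, as were Miat (550 and 593 bp) and Rmst (701 and 631 bp), lncRNAs better known from neural tissue. Fendrr and Ptprv had a region of the distal end alone, Pvt1 had separate regions of each end, and Tug1 and Crnde were left out by a coding start.

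Imprinted genes split between members and genes with no region. Airn, the antisense transcript that silences Igf2r on the paternal copy, had a proximal peak of 394 bp and a distal peak of 727 bp, and lay inside Igf2r 8962 bp from its nearest start. Peg13, expressed from the paternal copy within Trappc9, was also wider distally (1026 and 1466 bp). Kcnq1ot1, which silences genes around Kcnq1, was at 490 and 554 bp, and Nespas, antisense to the Gnas locus, was wider proximally (684 and 492 bp) and 1907 bp from a start of Gnas. Airn and Peg13 met the CpG definition (ratios 0.791 and 0.815), whereas Nespas was just under it at 0.583 and Kcnq1ot1 at 50% GC with a ratio of 0.320. H19, Meg3, Rian and Mirg, imprinted genes active in many embryonic tissues, had no region within 1 kb of a start in either list. Of 13 genes on the list, 4 were members, 7 had no region and 2 were not in the annotation.

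MicroRNA genes and hosts known in cartilage and limb were members in 9 of 50 cases that could be assessed (2 of the 52 names were not in the annotation), and 35 had no region within 1 kb. Mir140 and Mir455, miRNAs known for cartilage expression, were among the latter. A miRNA start in the annotation is the start of its hairpin, which can lie far from the promoter of its host. The region at Dnm3os and Mir199a-2 measured 900 bp proximally and 921 bp distally and was poor in CpG (ratio 0.191), whereas Mir199a-1 had a region of the distal end alone. Mir17hg, host of the miR-17 to miR-92a cluster, had a region of 757 and 631 bp with 74.5% GC, and Mir155hg of 1010 and 1105 bp.

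Several miRNA members were rich in CpG and unequal in width between the ends. Mirlet7i had the highest GC content of the named members (84.0%) and was wider proximally, at 1326 and 933 bp. Mir193a was also wider proximally (992 and 641 bp, 77.0% GC). Mir210, the miRNA induced by hypoxia, was similar at both ends (1145 and 1078 bp, 69.0% GC). Mir99ahg had 3 regions of 417 to 723 bp, none rich in CpG, and Carmn, a lncRNA of smooth muscle, had peaks of 593 and 424 bp. Outside the list, Mir148a (1187 and 1035 bp, ratio 0.966) was rich in CpG, whereas Mir146 (377 and 290 bp, 0.215), Mir129-1 (611 and 632 bp, 0.309) and Mir128-2 (789 and 934 bp, 0.390) were not, and Mir146 and Mir129-1 held TGACTCA. These 4 were named after their values were seen.

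Structural RNA genes were members in 6 of 13 cases that could be assessed, the other 2 of the 15 names not being in the annotation. Rn7sk had peaks of 1185 bp proximally and 1032 bp distally, centred on A and T rich sequence (32.5% GC). Rny1 was among the 4 members with more than 1 peak of an end, with 1 proximal and 2 distal peaks in 793 bp. Terc, the RNA template of telomerase, had peaks of 728 and 709 bp with 63.0% GC. Rnu11 (554 and 545 bp) and Rn7s2, the RNA of the signal recognition particle (829 and 835 bp, 33.0% repeated words), were alike at both ends, and Vaultrc5, an RNA of the vault particle, measured 787 bp in both. Another 5, including Rmrp and Rpph1, the RNAs of RNase MRP and RNase P, had a shared region within 1 kb of a coding start.

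Coding genes were mostly not close by. The median distance from a member to a coding start was 31952 bp (quartiles 12076 and 86136). By distance, 39 members lay between 1 and 2 kb, 68 between 2 and 5 kb, 105 between 5 and 10 kb, 398 between 10 and 50 kb, 163 between 50 and 100 kb, and 216 beyond 100 kb. Most lay outside coding genes (788, or 79.7%), 123 inside a coding gene on the opposite strand and 78 inside a coding gene on the same strand. The nearest coding genes numbered 844, of which 734 were nearest to 1 member and 22 to 3 or more, with 7 members each for Gm10330 and Olfr1507 and 5 for Tex14.

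The relative direction of the noncoding and coding gene was near even. The noncoding gene was on the same strand upstream of the coding start in 261 members, on the same strand downstream in 255, on the opposite strand downstream in 237 and on the opposite strand upstream, head to head, in 236. By distance, head to head pairs made up 14 of 39 members (35.9%, 22.7 to 51.6%) between 1 and 2 kb and 24 of 68 (35.3%, 25.0 to 47.2%) between 2 and 5 kb, compared with 17.1% (11.1 to 25.5%) between 5 and 10 kb and 20.9 to 24.1% beyond. The intervals of both bins under 5 kb overlapped with that of every longer distance. The share rich in CpG was 38.5% between 1 and 2 kb, 39.7% between 2 and 5 kb and 21.8% (16.8 to 27.7%) beyond 100 kb. According to RefSeq, 70 members (7.08%) lay within 1 kb of a coding start that the selecting annotation does not list.

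**Figure D5:**
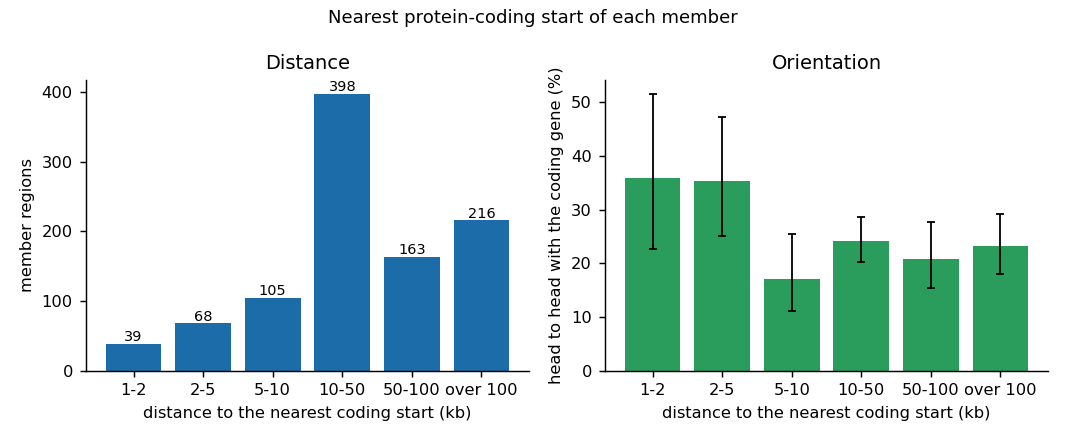
Number of members (left) and percent arranged head to head with the nearest coding gene (right, with 95% Wilson intervals) by distance to the nearest coding start in kb. More members (398) lie between 10 and 50 kb than in any other bin, and the 2 bins under 5 kb are at 35.9% and 35.3% head to head.

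Of the 5 members farthest from coding starts, 3 were at lincRNAs alone. C130073E24Rik, 2071228 bp from Tenm3, was wide (1777 bp) and rich in CpG (ratio 0.787). Gm35552 lay 1425357 bp from Hace1, and Gm13470 lay 1325346 bp from Zeb2, a transcriptional repressor of development, with peaks spanning 1521 bp and a CpG ratio of 0.078. The other members of the 5 farthest lay at the miRNA and misc RNA genes Gm47304 and Rn7s6 and at Gm40864 and Gm17391, a processed transcript and a processed pseudogene, and held words that occur up to 8 and 26 times. RefSeq places a coding start within 1 kb of the region at Gm40864, so its distance holds for the selecting annotation only.

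Coding genes known in the growth plate were the nearest coding genes of 19 members, at any distance, from 1971 bp (Ptch1) to 1325346 bp (Zeb2). These neighbours were 17 of the 140 listed genes that are annotated as coding (12.1%), while 844 of all 20807 coding genes (4.06%) were nearest to a member. The list was chosen with earlier results of these data known, so the difference between these shares is not a test. Within 10 kb were 5 pairs. A930032L01Rik lay 1971 bp upstream of a start of Ptch1, the hedgehog receptor, with 599 bp proximally and 71.0% GC. D730003I15Rik lay head to head with Atf3, a stress-induced partner of AP-1 factors, at 5955 bp, and was rich in CpG (ratio 0.947). The others were Gm23042 in Chsy1, an enzyme of chondroitin sulfate synthesis (8495 bp), Gm37374 upstream of Tbx18, a T-box factor (9098 bp), and 1700113A16Rik by Mef2d (9182 bp).

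Farther neighbours included genes of the bone morphogenetic protein and fibroblast growth factor pathways. Mir3090 lay 12183 bp downstream of a start of Bmp2, with a proximal peak of 570 bp and a distal peak of 390 bp. Gm47990 lay 24155 bp upstream of Bmp6, and 4930412C18Rik 72907 bp upstream of Gdf6, a joint factor. Fgfr1 was nearest to Gm45237 at 71963 bp and to Gm30978 at 84298 bp, and Hand2, a limb patterning factor, to Gm34030 and 5033428I22Rik at 12884 and 19732 bp. Of the 19 members, 6 were rich in CpG and 2 held TGACTCA, at Bmp6 and Fgfr1, as printed above. Adjacency along the chromosome is a position and no measure of regulation.

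Among noncoding genes of the Hox clusters, 1 of 16 was a member, and among those opposite developmental factors, 1 of 19 in the annotation. The share was 4.02% of all noncoding genes with a start outside 1 kb of coding starts. Counts of 1 cannot be told apart from that share. Of 16 Hox cluster genes, Hoxd3os1 was a member (519 bp proximally, 456 bp distally, 3854 bp from Hoxd4), Hotairm1 was at a coding start, Haglr had a distal region alone, and 13 had no region within 1 kb, among them Hotair and Hottip. Of 30 names opposite developmental factors, 19 were in the annotation. The symbol Nkx2-2os is carried by an antisense gene and by a misc RNA gene, and it was in the set through a start of the misc RNA alone, 602 bp from a narrow region of 302 bp proximally and 315 bp distally. For 5 others, including Hand2os1 and Zeb2os, the shared region lay within 1 kb of a coding start. Runx2os2 and Emx2os had a distal region alone and Sox2ot a proximal region alone, 10 had no region and 11 were not in the annotation under these names.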

How the data were processed

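The deposited files are 1 peak list per femur end with 3 fields per line, giving chromosome, start and end positions on mm10 (not counts or signal). Per the labels and the methods of the study, the authors aligned reads with Bowtie2 (2.2.8), removed duplicates, called peaks with MACS2 (version 2.1.1 in the submitters' processing notes) and kept peaks reproducible between 2 biological replicates at an IDR under 0.05. Treatment of reads with several alignments, and a Tn5 offset, are not given in the sources used here.

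Peaks of both lists overlapping by 1 bp or more were merged with Python 3.11.15 and NumPy 2.4.6, and distances were taken from region edges to every transcript start of GENCODE vM21. Sequence was read from GRCm38, patches left out. Repeated 32-base words were counted on both strands of the assembly. Shares carry 95% Wilson intervals. The merging and selection steps were tested on simulated data, where 1000 of 1000 regions received the right class. Of the 27646 genes, 9 count through a start near a coding gene. Names come from 7 lists of noncoding genes and 1 of growth plate genes, the 10 widest members, the 5 with most genes, the 5 farthest from coding starts and those nearest the limits. The members and lists were chosen with earlier results of these data known. Alternatives changed 1 choice at a time. The check of blood cell markers is not reported here.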

Additional observations from a re-analysis of the deposited data

How the results depend on the processing

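No paired analysis was possible because each femur end has a single list that combines its replicates. Of 92 values recomputed under other settings, 65 stayed within the interval, quartiles or 1.5-fold range of the reported value and 27 moved. The share of noncoding genes with a member (4.02%) was 3.33% with starts within 500 bp and 5.22% within 2 kb. It was 2.07% with only peaks of the median width or more and 4.30% with the start of the gene record only. With the region centre it was 3.54%, and without pseudogene types 5.43%. Members at lncRNA genes (60.4%) were 57.2% within 2 kb, 63.5% with the wider peaks, 74.9% without pseudogene types and 65.5% without TEC genes. Members rich in CpG (33.3%) were 37.3% within 500 bp, 28.9% within 2 kb, 44.2% with the wider peaks, 39.9% with the gene record start, 36.7% with the centre, 28.1% over the whole region and 25.6% with GC over 55% and a CpG ratio over 0.65. AP-1 letters (16.3%) were at 9.98% with the wider peaks, 14.1% with the gene record start and 30.9% over the whole region, and CTCF letters (2.93%) at 1.27% with the wider peaks and 6.37% over the whole region. The wider peaks left 471 of 989 members with a median width of 1015 bp. A setting chosen after seeing the data, without regions of over 50% repeated words, gave 3.5% of genes, 65.5% at lncRNA genes and 30.1% rich in CpG. Another, without regions near RefSeq coding starts, moved neither value it was run for. The wider-peak and no-pseudogene settings have fewer regions or genes by construction, and for the rest the cause was not tested. With positions alone, a region missing from a list may be closed or may have failed the threshold, and neither peak height nor the variation between litters can be read.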
